A study of Homo sapiens with 12 samples.

Results

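How far the effect of losing MBD2 depended on the stage of erythroid maturation was measured as a difference of differences. For every gene, the knockout minus control log2 difference before differentiation was subtracted from the same difference after differentiation. A positive value, called here a higher interaction, means that knockout relative to control stood higher after differentiation than before it; a negative value, a lower interaction, means the reverse. The genes are all those with enough counts in the 12 libraries, 17175 of the 60483 genes counted, and they were not chosen by their response. A gene was called when its Benjamini-Hochberg adjusted p from edgeR's quasi-likelihood test was below 0.05.

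The cells were HUDEP-2, an established human line of red cell precursors that can be expanded and then made to mature in culture. The 4 groups held 3 libraries each. Control cells carried a scrambled guide RNA (sgSCR, genotype given as WT), and knockout cells were MBD2-/-; both were sampled at each of 2 stages. Before differentiation the labels give the stage as early basophilic erythroblast, in SFEM medium with stem cell factor (SCF), erythropoietin (EPO), dexamethasone (DEX), doxycycline (DOX) and glutamine. After differentiation they give late basophilic erythroblast, in IMDM with human AB serum, EPO, DOX, insulin, heparin and holo-transferrin. EPO and DOX were therefore present in all 4 groups, and SCF and DEX only before. Stage and medium changed together and cannot be told apart. The length of differentiation is 3 days in the extraction protocol and 5 days in the growth protocol. The labels do not say whether the knockout cells were 1 clone, nor whether replicates came from separate cultures. All p-values therefore refer to the scatter of these libraries, part or all of which could be technical.

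MBD2 binds methylated CpG sites in DNA and brings the nucleosome remodelling and deacetylase complex NuRD, which silences genes by removing acetyl groups from histones and moving nucleosomes. In adult erythroid cells it is known for holding the fetal globin genes silent. Erythroblasts meanwhile pass through a fixed programme in which growth and ribosome production decline, heme and hemoglobin accumulate, the cytoskeleton is rebuilt and organelles are removed, with GATA1, TAL1 and KLF1 as leading regulators and FOXO3 acting late.

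Library totals ran from 7667997 to 14047498 counts. Values below are CPM, the count divided by the library total in units of 1e6 after scaling, listed as replicates 1, 2 and 3. MBD2 itself stood at 78.7, 77.7 and 75.3 CPM in control libraries before differentiation and at 22.7, 19.8 and 24.5 in knockout libraries. After differentiation it stood at 61.4, 59.1 and 58.2 CPM in control and at 16.8, 16.1 and 14.6 in knockout libraries, so the label and the transcript went together at both stages. Its own interaction was −0.12 ± 0.12 (log2 ± SE, adjusted p = 0.575) and did not pass the test. MBD2 lies on chromosome 18, whose tested genes had median knockout effects of −0.481 before and −0.384 after on the log2 scale. The library scaling factors were lower in the knockout libraries after differentiation (0.883 to 0.931) than in the other 9 (1.01 to 1.07). Their share of counts on ribosomal RNA genes, mitochondrial ones included, was also higher, 2.33% ± 0.566 (SD, n = 3), against 0.794% ± 0.242 in control after, 1.02% ± 0.239 in knockout before and 0.644% ± 0.381 in control before. The part of this composition in the interaction was not tested beyond the scaling alternatives given with the results.

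The interaction passed the test for 2227 of the 17175 genes. Of these, 1079 genes were higher (6.28% of those tested) and 1148 were lower (6.68%), and 4587 genes had an unadjusted p below 0.05. The median interaction over all tested genes was −0.01 on the log2 scale. The called genes had a median absolute interaction of 0.644 against 0.267 over all tested genes. A change of at least 2-fold was reached by 221 of the called higher genes (1.29% of those tested) and 268 of the called lower genes (1.56%). Among the called genes, 1012 higher and 1049 lower ones also had libraries that did not overlap, in the sense that every knockout minus control difference after lay beyond every one before. Non-overlap in either direction was met by 3019 of all tested genes (17.6%). When libraries were compared by their totals alone, without scaling factors, the median interaction moved to −0.145, the calls became 644 higher and 2146 lower, and the share of calls that were higher went from 48.5% to 23.1%.

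The knockout effects that make up the interaction were unequal in number. Before differentiation 1558 genes were higher in the knockout (9.07%) and 1400 lower (8.15%), and after differentiation 2882 were higher (16.8%) and 2805 lower (16.3%). The count before of 1558 was 1024 without control replicate 1 before. Across the 17175 genes the 2 effects, which share no library, had a Pearson correlation of 0.63; genes are not independent replicates, and this is a description.

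**Figure D1:**
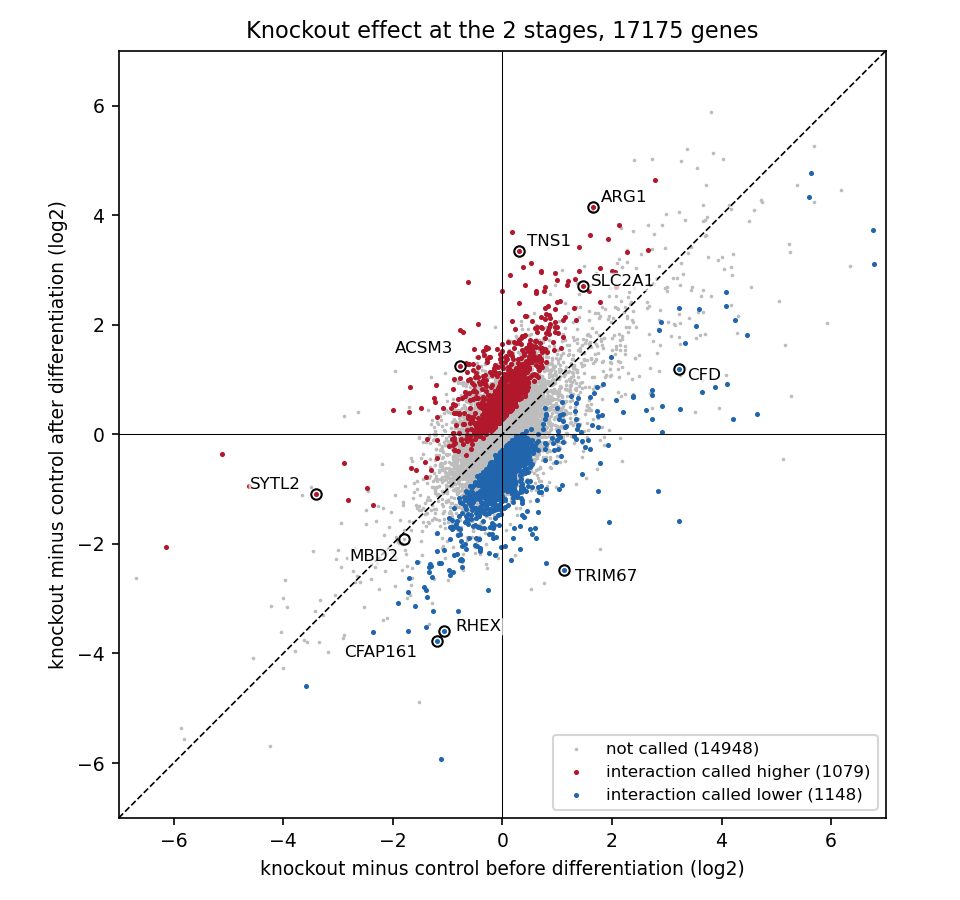
Knockout minus control log2 difference of each of the 17175 tested genes before differentiation (horizontal) and after it (vertical), with genes called for the interaction coloured by direction and the diagonal marking equal effects. The 1079 called higher genes lie above the diagonal and the 1148 called lower genes below it; 7 genes beyond ±7 on either axis are not shown.

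Most called genes passed the knockout test at a single stage. A group of 1331 genes, 59.8% of those called, passed the knockout test only after differentiation, 665 with a higher and 666 with a lower interaction. Their median absolute knockout effect was 0.113 before and 0.611 after. A further 404 genes (18.1%) differed in the same direction at both stages and by more after, with medians of 0.49 and 1.27. Only 49 genes (2.2%) differed the same way and by less after, with medians of 1.98 and 0.91, and 252 (11.3%) passed the knockout test only before. The knockout effect changed sign between stages, passing the test on both sides, in 111 genes (4.98%), and 80 genes (3.59%) passed at neither stage alone. Every gene in these groups passed the test of the difference itself. Leaving out 1 library moved some group sizes by more than 1.5 times. The 80 became 50 without control replicate 2 before, 49 without control replicate 2 after, 44 without knockout replicate 1 after and 43 without knockout replicate 2 after. The 252 genes called only before became 133 without control replicate 1 before and 154 without control replicate 2 before, and the 404 became 256 without control replicate 2 before.

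**Figure D2:**
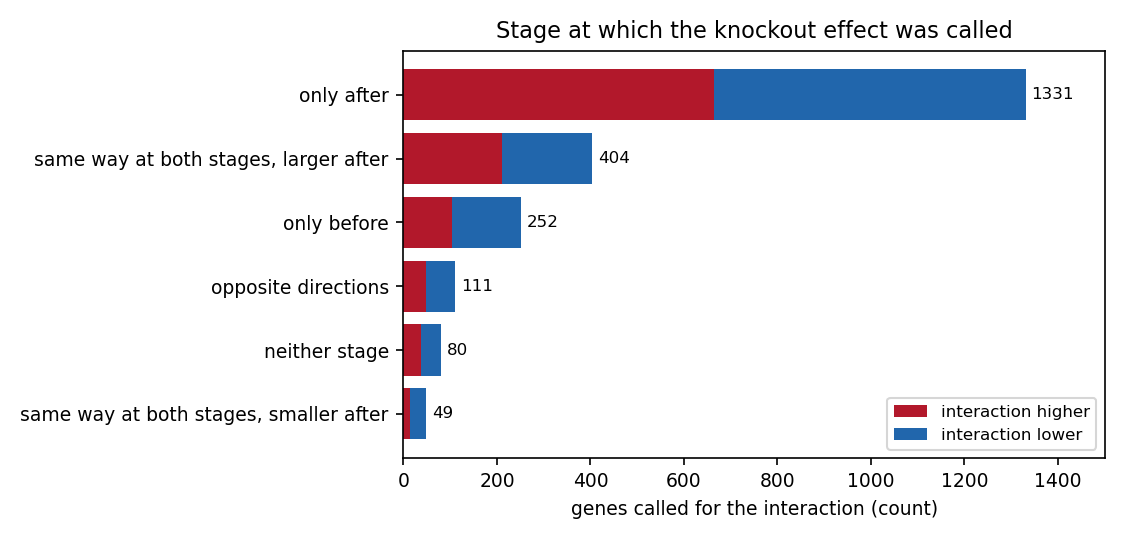
Number of called genes in each pattern of knockout effects before and after differentiation, with higher and lower interactions stacked. The 1331 genes called only after differentiation form the longest bar, 665 higher and 666 lower.

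The leading genes were taken from called protein-coding genes with non-overlapping libraries and a mean log2 CPM of at least 2. That limit lies in the second lowest expression quartile of tested genes (1.36 to 3.65). The largest higher interactions were mostly in genes that were higher in the knockout after differentiation and by less, or not by the test, before it. TNS1, which encodes the focal adhesion protein tensin 1 (chromosome 2, 217799789 to 218002995, minus strand, GENCODE 22 on GRCh38), stood at 3.10, 2.23 and 2.67 CPM in control and 3.32, 2.96 and 3.44 in knockout libraries before. After differentiation it stood at 6.00, 4.94 and 4.00 CPM in control and 44.8, 48.1 and 59.8 in knockout libraries. The genotypes were close before and far apart after, and the interaction was 3.04 ± 0.27 (log2 ± SE, adjusted p = 2.42e-06). TCP11L2 followed at 2.67 ± 0.16 (adjusted p = 6.25e-08).

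ARG1, the arginase that cleaves arginine to ornithine and urea, was higher in the knockout at both stages. Its libraries read 1.5, 1.9 and 1.81 CPM in control and 5.70, 5.03 and 5.88 in knockout before, then 3.56, 2.33 and 2.95 in control and 52.0, 51.0 and 51.6 in knockout after. No library of 1 genotype reached the other at either stage, and the knockout effect grew from 1.66 ± 0.18 to 4.14 ± 0.13 (interaction 2.49 ± 0.24, adjusted p = 6.92e-06). The other genes of this group include AGPAT4 (2.32 ± 0.17), a lysophospholipid acyltransferase, PIK3IP1 (2.27 ± 0.31), an inhibitor of PI3 kinase, and TSPO2 (2.26 ± 0.26), the erythroid member of the translocator protein family. GABARAPL1, an autophagosome protein of the ATG8 family, had a knockout effect of 1.59 ± 0.19 before and 3.64 ± 0.18 after. RORA, a nuclear receptor, rose in the knockout by 0.78 ± 0.12 before and 2.68 ± 0.11 after. RAP1GAP (1.99 ± 0.20), which turns off the GTPase RAP1, and MMD (1.88 ± 0.20) complete the rule's list together with ACSM3, described below, and SYTL2. SYTL2 is the one gene of the 12 whose higher interaction is a shrinking loss: its knockout effect was −3.40 ± 0.20 before and −1.10 ± 0.24 after, with control libraries between 14.7 and 19.7 CPM before and between 4.00 and 4.97 after.

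**Figure D3:**
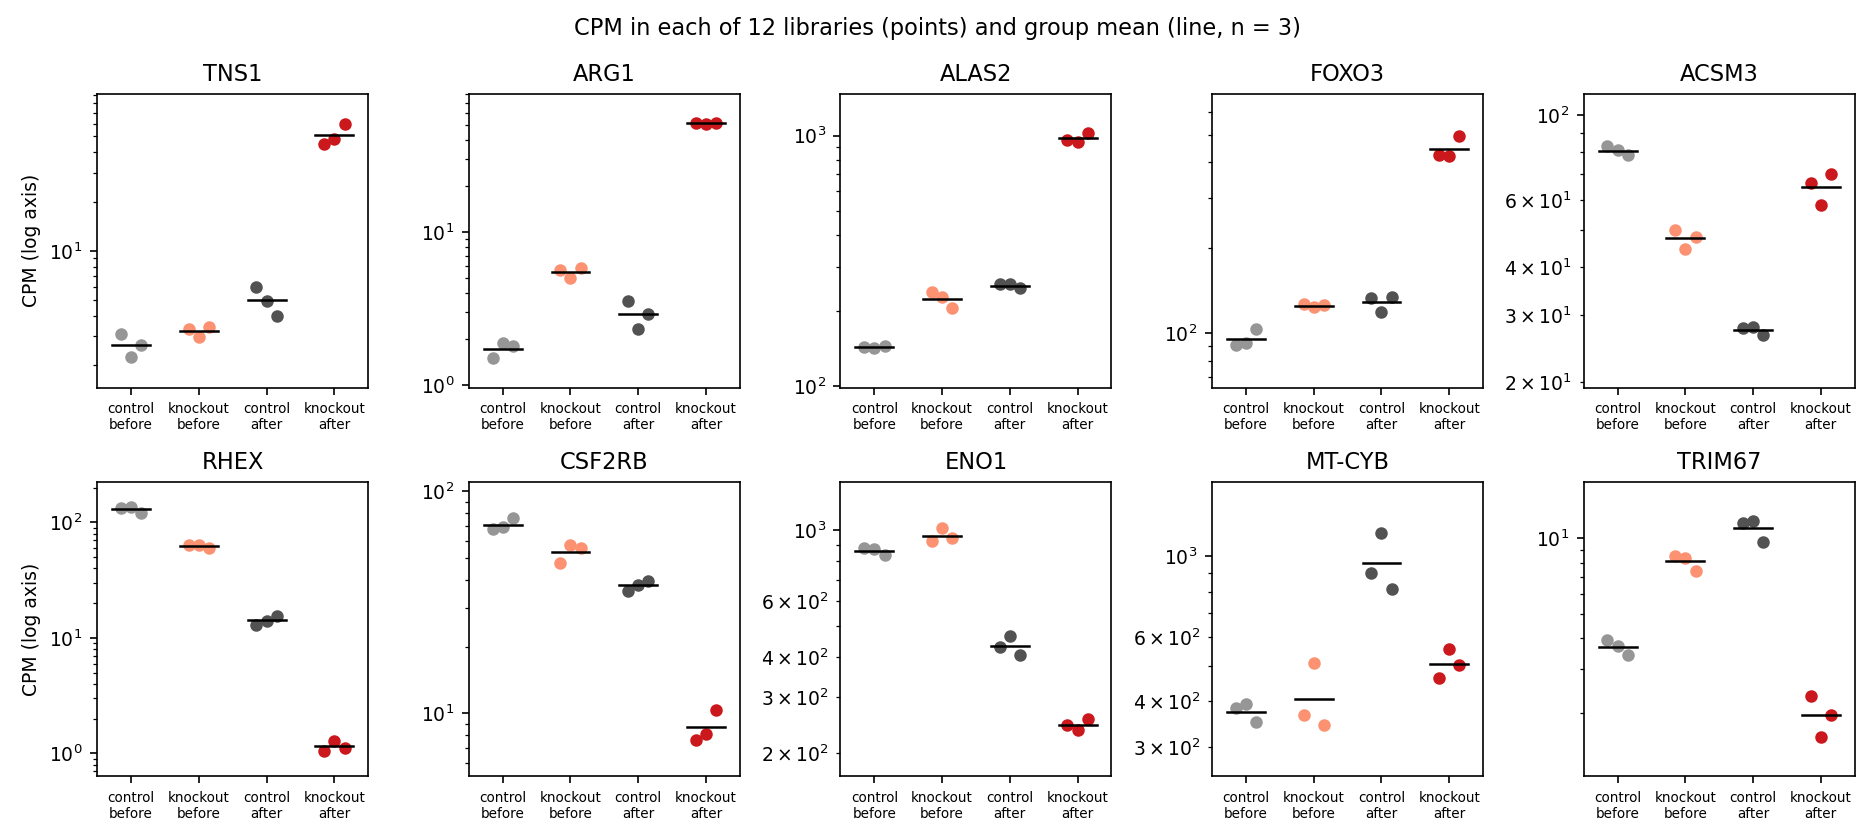
CPM on a log axis in each of the 12 libraries for 10 genes discussed in the text, with points for libraries and short lines for group means. TNS1 and ARG1 separate by genotype mainly after differentiation, RHEX and CSF2RB are lowest in the knockout after it, and TRIM67 and ACSM3 exchange the order of the genotypes.

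MBD2 reads CpG methylation, so the CpG content just upstream of leading genes is shown for 3 genes with a higher and 2 with a lower interaction whose upstream window overlaps no exon of the annotation used for counting. Each sequence holds the 250 bases before the RefSeq transcription start on GRCh38.p14, written 5′ to 3′ on the gene's strand with CG dinucleotides in capitals. The windows are TNS1 at chr2:218010276-218010525 (minus), AGPAT4 at chr6:161274062-161274311 (minus), TSPO2 at chr6:41042217-41042466 (plus), TRIM67 at chr1:231161808-231162057 (plus) and DEF6 at chr6:35297568-35297817 (plus). The RefSeq starts of TNS1 and TRIM67 lie outside the counted GENCODE 22 genes.

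TNS1: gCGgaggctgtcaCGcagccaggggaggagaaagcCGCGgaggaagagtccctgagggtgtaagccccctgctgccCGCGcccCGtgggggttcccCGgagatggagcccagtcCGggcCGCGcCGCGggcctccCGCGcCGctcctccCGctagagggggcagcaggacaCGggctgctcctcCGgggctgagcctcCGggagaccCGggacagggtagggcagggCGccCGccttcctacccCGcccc
AGPAT4: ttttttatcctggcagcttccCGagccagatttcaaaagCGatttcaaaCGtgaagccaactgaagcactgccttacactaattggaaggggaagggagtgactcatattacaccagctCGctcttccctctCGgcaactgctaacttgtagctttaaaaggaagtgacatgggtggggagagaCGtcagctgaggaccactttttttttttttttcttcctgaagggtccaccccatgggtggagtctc
TSPO2: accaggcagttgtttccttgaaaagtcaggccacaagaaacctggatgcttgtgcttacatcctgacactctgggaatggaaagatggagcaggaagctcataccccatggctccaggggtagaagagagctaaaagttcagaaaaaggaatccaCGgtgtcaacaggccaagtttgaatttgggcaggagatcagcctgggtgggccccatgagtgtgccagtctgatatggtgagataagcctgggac
TRIM67: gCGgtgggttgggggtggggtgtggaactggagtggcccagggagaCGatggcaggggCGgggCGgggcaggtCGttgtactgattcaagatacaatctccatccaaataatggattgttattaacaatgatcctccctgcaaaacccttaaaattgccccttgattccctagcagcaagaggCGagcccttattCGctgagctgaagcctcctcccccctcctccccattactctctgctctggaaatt
DEF6: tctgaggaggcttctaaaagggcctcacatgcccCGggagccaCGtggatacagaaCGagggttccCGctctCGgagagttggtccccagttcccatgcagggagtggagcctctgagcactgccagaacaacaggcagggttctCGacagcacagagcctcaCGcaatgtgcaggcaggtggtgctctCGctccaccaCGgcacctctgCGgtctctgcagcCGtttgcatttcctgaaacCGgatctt

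The 5 windows differed widely in CpG number. TNS1 held 24 CG dinucleotides, DEF6 12, TRIM67 7, AGPAT4 6 and TSPO2 1. To describe the windows further, 4 motifs were searched on both strands: AGATAA, which GATA factors bind, CCACACCC, which KLF1 binds, CACGTG, the E-box that MYC can bind, and TGATGCAA, an ATF4 element. TSPO2 held AGATAA, TRIM67 held CCACACCC and DEF6 held CACGTG, a palindrome that reads the same on both strands. The printed windows are a selection. Those of TCP11L2, RORA, WWC3, PRRG4 and EGFL7 also overlapped no counted exon and are not printed. They held 26, 1, 32, 28 and 14 CG dinucleotides, in that order, and none of the 4 motifs. Over the 9290 tested protein-coding genes (of 11652) matched by symbol to a RefSeq promoter window of 250 bases before and 50 after the start, AGATAA occurred in 4.8%, against 7.9% of the 734 called higher and 4.46% of the 829 called lower. CCACACCC occurred in 2.91%, 1.91% and 3.02% of these windows, CACGTG in 10.7%, 11.3% and 14.1%, and TGATGCAA in 0.431%, 0.545% and 0.241%. The median CpG number was 26 over all windows, 26 over those of called higher and 27 over those of called lower genes. These are matches of letters in short windows, and no methylation was measured here.

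The largest lower interactions included genes that stood lower in the knockout after differentiation than at the earlier stage. RHEX, a regulator of erythroid proliferation downstream of the EPO receptor (chromosome 1, 206037231 to 206102459, plus strand), stood at 134, 135 and 120.2 CPM in control and 63.7, 63.6 and 59.6 in knockout libraries before. After differentiation it stood at 13, 14 and 15.6 CPM in control and at 1.05, 1.29 and 1.12 in knockout libraries. The groups did not overlap at either stage, and the knockout effect went from −1.06 ± 0.07 to −3.60 ± 0.16 (interaction −2.54 ± 0.19, adjusted p = 4.49e-07).

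CSF2RB, the shared beta chain of the IL-3, IL-5 and GM-CSF receptors, read 67.7, 69.3 and 75.6 CPM in control and 47.6, 57.3 and 55.7 in knockout libraries before. It read 35.7, 38.1 and 39.7 CPM in control and 7.62, 8.07 and 10.4 in knockout libraries after, again without overlap (interaction −1.73 ± 0.15, adjusted p = 1.69e-06). CFAP161 (−2.58 ± 0.24), a ciliary protein gene, and C12orf75 (−1.88 ± 0.21) had the same form. TRIM29 (−2.04 ± 0.23), SPR (−1.83 ± 0.33), which encodes sepiapterin reductase of tetrahydrobiopterin synthesis, and DEF6 (−1.72 ± 0.24), a guanine nucleotide exchange factor, passed the knockout test only after differentiation. CFD, complement factor D, and H1F0, the linker histone H1.0 of cells leaving the cycle, were higher in the knockout at both stages and by a smaller fold after: CFD by 3.23 ± 0.18 and then 1.19 ± 0.22, H1F0 by 4.08 ± 0.25 and then 2.34 ± 0.09.

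In the 111 genes with opposite effects, 48 turned from lower to higher in the knockout and 63 from higher to lower. TRIM67, a ubiquitin ligase gene (chromosome 1, 231162112 to 231221556, plus strand), read 3.94, 3.72 and 3.43 CPM in control and 8.52, 8.35 and 7.42 in knockout libraries before. After differentiation the order was exchanged, with 11.5, 11.7 and 9.68 CPM in control and 2.34, 1.61 and 1.97 in knockout libraries (interaction −3.61 ± 0.24, adjusted p = 1.32e-07). No library of 1 genotype overlapped the other at either stage. ACSM3, a mitochondrial medium-chain acyl-CoA synthetase, went the other way. It read 82.9, 81.1 and 78.5 CPM in control and 50.1, 44.6 and 48.0 in knockout before, then 27.8, 27.8 and 26.6 in control and 66.5, 58.2 and 70.0 in knockout after (interaction 2.00 ± 0.11, adjusted p = 1.94e-08). Control libraries were lower after than before, and knockout libraries higher.

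Further genes that turned from lower to higher were WWC3 (1.56 ± 0.19), a Hippo pathway scaffold, BTG1 (1.49 ± 0.17), an antiproliferative cofactor of mRNA decay, CDH6 (1.45 ± 0.17), a cadherin, and ZC3H6 (1.4 ± 0.18). Those that turned from higher to lower included the transcription factor KLF15 (−1.83 ± 0.37), the taurine transporter SLC6A6 (−1.76 ± 0.25), PRRG4 (−1.64 ± 0.30) and EGFL7 (−1.62 ± 0.23), a secreted endothelial factor. The count of 48 was 24 with library totals alone, 29 with no count filter, 31 without control replicate 1 before or knockout replicate 2 after, and 30 without control replicate 2 before. The count of 63 was 29 without control replicate 1 before, 33 without control replicate 2 before, 38 without knockout replicate 3 before or control replicate 1 after, 32 without control replicate 2 after or knockout replicate 2 after, and 39 without knockout replicate 1 after. The interactions of the 10 genes named here passed the test with the same sign in each of these settings; whether their knockout effects at the single stages also passed there was not followed.

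Genes of heme synthesis had higher interactions together. Of 22 tested, 15 were called higher (68.2%, against 6.28% of all tested genes) and 1 lower (4.55%, against 6.68%), with a median of 0.55 on the log2 scale. With library totals alone the counts were 13 and 2. The background shares here and below cover all expression levels, and the lists were not matched for expression. In the highest expression quartile 550 of 4294 genes were called higher and 412 lower. In the lowest quartile 68 of 4294 were called higher and 70 lower. ALAS2, the erythroid enzyme of the first and rate-limiting step, stood at 143, 141 and 144 CPM in control and 237, 226 and 204 in knockout libraries before. After differentiation it stood at 256, 254 and 245 CPM in control and at 962, 943 and 1027 in knockout libraries. The knockout libraries after differentiation stood apart from the other 9, and the interaction was 1.32 ± 0.09 (adjusted p = 3.11e-07). UROS (0.96 ± 0.09) and ALAD (0.92 ± 0.12), which act in the steps between, and FECH (0.70 ± 0.09), which inserts iron into the ring, were among the others. ALAD did not pass the knockout test before (−0.13 ± 0.08) and was higher in the knockout after (0.79 ± 0.08). CPOX (0.69 ± 0.10) and PPOX (0.57 ± 0.11), the enzymes just before FECH, were also called, and NFS1, the cysteine desulfurase that supplies sulfur for iron-sulfur clusters, was the 1 lower member (−0.57 ± 0.13). These 3 were named after their values were seen.

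**Figure D4:**
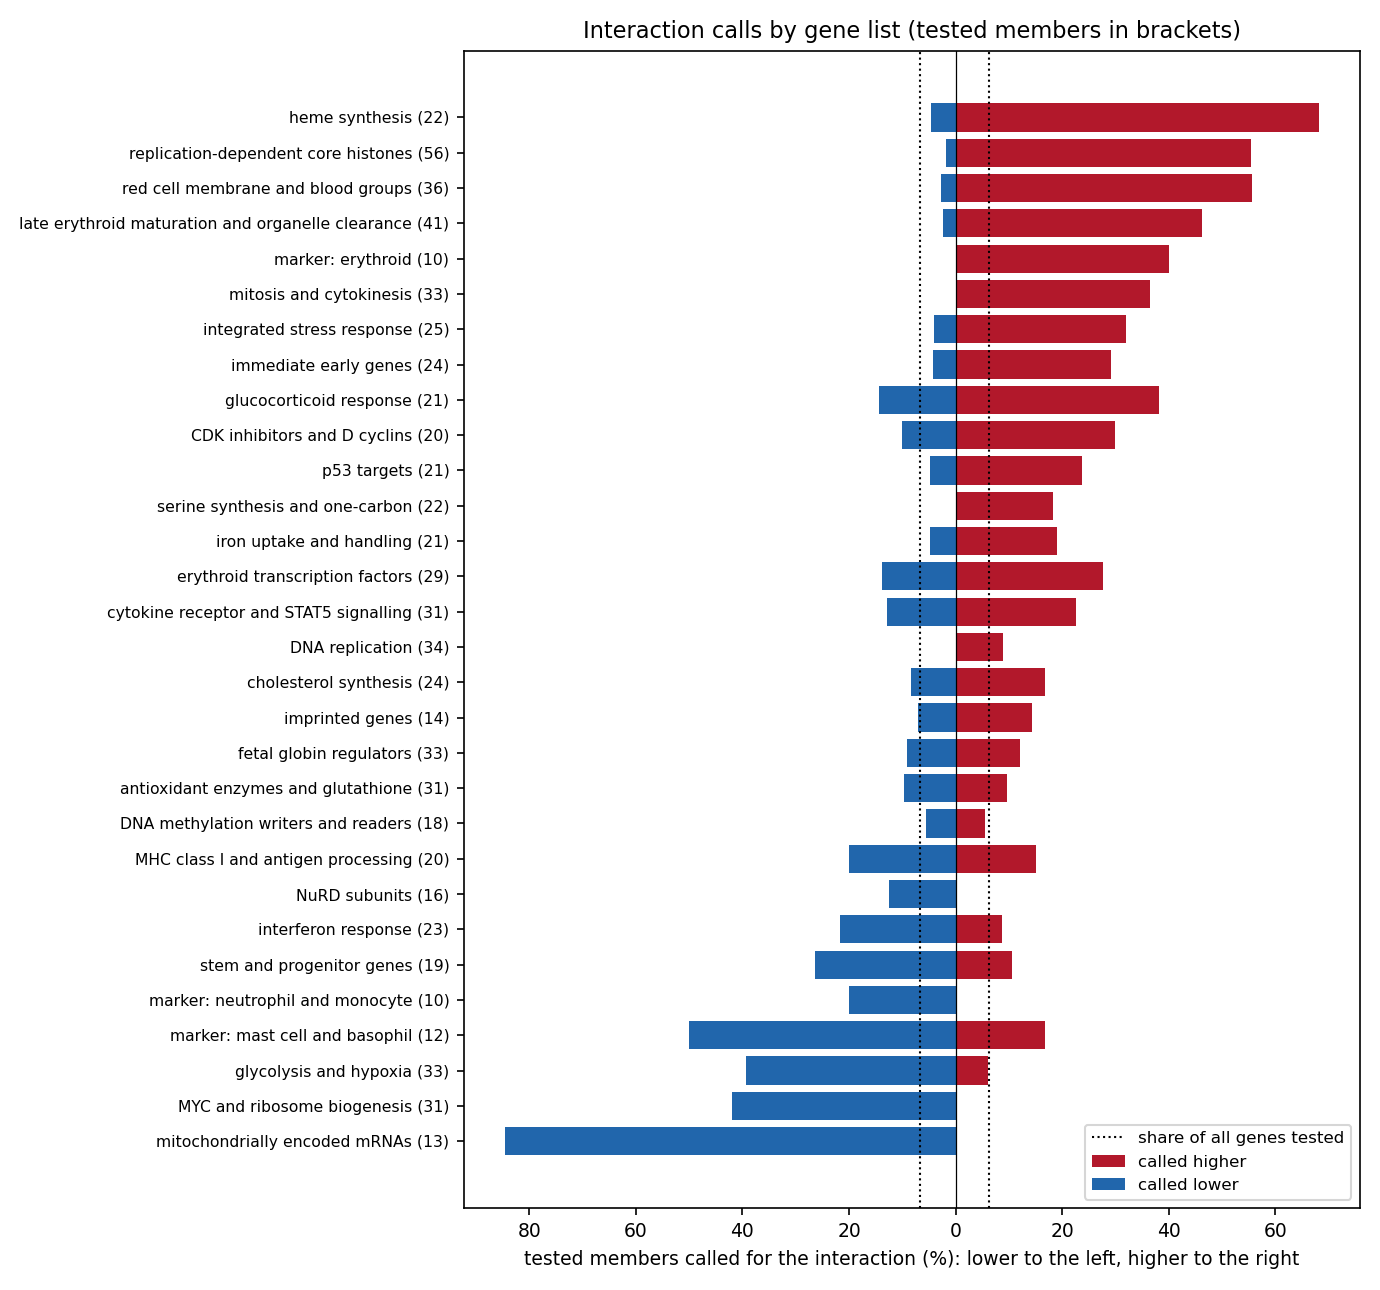
Percentage of the tested members of each gene list (10 or more tested) called higher (right) or lower (left) for the interaction, with dotted lines at the background of 6.28% and 6.68% of all tested genes. Heme synthesis (68.2% higher) and mitochondrially encoded mRNAs (84.6% lower) lie at the ends.

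Of 21 iron genes 4 were called higher (19%, against 6.28% of all tested genes) and 1 lower (4.76%, against 6.68%), with a median of 0.01. TFRC, the transferrin receptor, read 6324, 5787 and 5881 CPM in control and 7080.1, 5666 and 7070.0 in knockout libraries before, which overlap. It read 6702, 6588 and 7161 CPM in control and 12095, 11767 and 11441 in knockout libraries after, which do not (interaction 0.65 ± 0.12, adjusted p = 0.00195). SLC25A37, mitoferrin 1, was higher in the knockout at both stages (1.14 ± 0.08 and 2.14 ± 0.08). NCOA4 (0.84 ± 0.09), which delivers ferritin to lysosomes, and CYBRD1 (0.65 ± 0.10), a ferric reductase, were the other two.

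**Figure D5:**
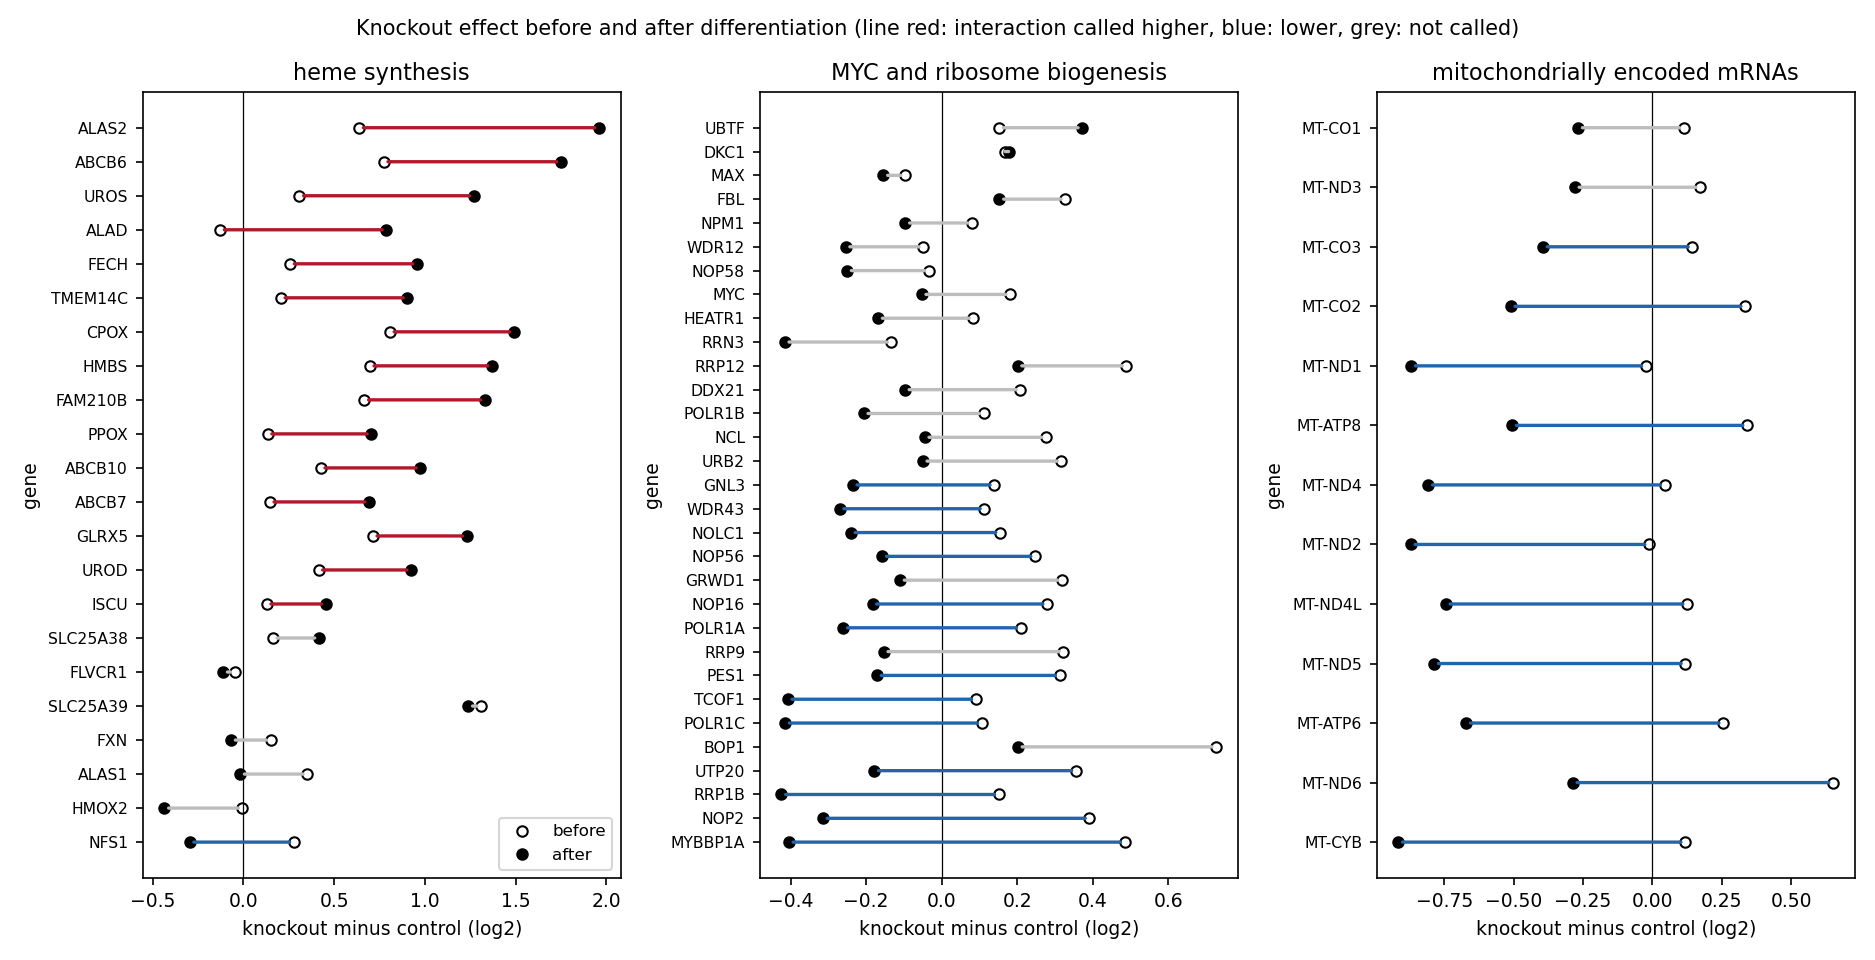
Knockout minus control log2 difference (horizontal) of each tested member before (open circles) and after differentiation (filled circles) for heme synthesis, MYC and ribosome biogenesis, and mitochondrially encoded mRNAs, joined by a line coloured by the interaction call. Filled circles lie to the right of open ones for 16 of the 22 heme genes and to the left for all 13 mitochondrial mRNAs.

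Red cell membrane and blood group genes had a median of 0.50. Of 36 tested, 20 were called higher (55.6%, against 6.28% of all tested genes) and 1 lower (2.78%, against 6.68%). With library totals alone these were 16 and 3. RHAG, the Rh-associated glycoprotein, read 699, 652 and 654 CPM in control and 811, 648 and 749 in knockout libraries before, and then 478, 439 and 472 in control and 1355, 1259.7 and 1210.4 in knockout libraries after. The genotypes overlapped before and not after (interaction 1.32 ± 0.11, adjusted p = 1.69e-06). SLC2A1, the main glucose transporter of human red cells, was higher in the knockout at both stages, by 1.47 ± 0.08 and then 2.70 ± 0.08. ERMAP (0.87 ± 0.08), carrier of the Scianna blood group, STOM (0.80 ± 0.08), the integral membrane protein stomatin, and GYPC (0.88 ± 0.12), glycophorin C, followed the same course. Members outside the naming rule, chosen after their values were seen, included ART4 (1.68 ± 0.23), RHD (1.42 ± 0.30) and the band 4.2 gene EPB42 (0.90 ± 0.11). The lower member was SLC4A1, band 3, taken up with the scale of measurement below.

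Late erythroid maturation and organelle clearance genes had a median of 0.40. Of 41 tested, 19 were called higher (46.3%, against 6.28% of all tested genes) and 1 lower (2.44%, against 6.68%). The counts were 16 and 1 with library totals alone. FOXO3, a transcription factor of late maturation, read 91.2, 92.7 and 103 CPM in control and 127, 123 and 126 in knockout libraries before. It read 133, 119 and 135 CPM in control and 426, 421 and 494 in knockout libraries after, and the groups did not overlap at either stage (interaction 1.41 ± 0.11, adjusted p = 6.06e-07). UBE2H (1.43 ± 0.12), a ubiquitin-conjugating enzyme of maturing erythroid cells, and OPTN (1.26 ± 0.10), an autophagy receptor, had small knockout effects before and large ones after. RIOK3, a kinase needed for enucleation, turned from lower (−0.48 ± 0.07) to higher (0.66 ± 0.07) in the knockout. The summed level of the 10 erythroid markers ran from 7749 to 8717 CPM in control and 8311 to 10167 in knockout before, and from 10181 to 11008 in control and 18692 to 20784 in knockout after, with no marker at 0. TFRC held 66.2% of these counts. Without it, left out after its values were seen, the sums were 1964 to 2393 and 2648 to 3085 CPM before, and 3592 to 3847 and 7252 to 8688 after. Whether these genes moved through a shift in maturation or gene by gene was not tested, and in bulk RNA a larger share of cells of a stage cannot be told apart from more RNA per cell.

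The globin genes, which the kit removes in part, passed the interaction test in 0 of 5 fetal and embryonic members by edgeR, with 0 at an unadjusted p below 0.05 and 0 by DESeq2 or limma voom. All 5 were higher in the knockout at each stage. HBG2, gamma globin 2, read 1.03, 0.745 and 1.43 CPM in control and 6.06, 20.6 and 6.33 in knockout libraries before. It read 1.41, 1.09 and 1.89 CPM in control and 28.5, 61.4 and 68.9 in knockout libraries after, and its interaction was 1.83 ± 0.95 (adjusted p = 0.233). Knockout replicate 2 before stood above the other two of its group, and without it the interaction was 2.64 (adjusted p = 0.0189). The remaining 4 had interactions of −0.51 ± 0.83 (HBG1), −0.07 ± 0.50 (HBZ, zeta globin), 0.22 ± 0.73 (HBBP1, a pseudogene) and 0.82 ± 0.39 (BGLT3, a noncoding RNA of the locus). HBG1 and HBG2 are near-identical copies that share exon bases in the annotation with other genes, so their split is uncertain.

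Adult globins were spread widely within groups. HBB, beta globin, read 682, 209.6 and 136 CPM in control and 624, 152 and 515 in knockout libraries before, and 197, 104 and 371 in control and 1855, 667 and 282 in knockout libraries after. The groups overlapped at both stages and the interaction of 1.74 ± 0.92 did not pass (adjusted p = 0.243). It was 0.764 without control replicate 1 before and 0.762 without knockout replicate 1 after. HBA1 (1.49 ± 0.93) and HBA2 (1.67 ± 0.93), the alpha globins, were the same in this respect, and HBD (0.09 ± 1.28), HBM (−0.28 ± 0.51) and HBQ1 (−0.09 ± 0.34) did not pass either. The 1 called member of the 7 on the adult list was AHSP, the chaperone of free alpha globin (0.42 ± 0.09, adjusted p = 0.00638), whose call was lost with library totals alone (0.289).

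Among 29 erythroid transcription factors, 8 were called higher (27.6%, against 6.28% of all tested genes) and 4 lower (13.8%, against 6.68%). The median was 0.04, and the counts were 7 and 7 with library totals alone. The called higher members included E2F2 (1.09 ± 0.14), TAL1 (0.63 ± 0.09) and KLF3 (0.53 ± 0.08). GATA2, the progenitor GATA factor that GATA1 replaces, read 40.5, 46.5 and 48.0 CPM in control and 32.3, 44.8 and 45.1 in knockout libraries before, which overlap. It read 28.0, 27.1 and 24.4 CPM in control and 9.5, 9.36 and 12 in knockout libraries after (interaction −1.23 ± 0.19, adjusted p = 0.000376). GATA1 (0.19 ± 0.20, adjusted p = 0.587) and KLF1 (0.20 ± 0.11, adjusted p = 0.258), looked up outside the rule, did not pass.

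Regulators of fetal globin and chromatin were called in both directions. Of 33 fetal globin regulators 4 were higher (12.1%, against 6.28% of all tested genes) and 3 lower (9.09%, against 6.68%), with a median of −0.01. MYB, whose level falls in maturing erythroblasts, was lower in the knockout by 0.35 ± 0.06 on the log2 scale before and 0.77 ± 0.06 after (interaction −0.42 ± 0.09, adjusted p = 0.00404). EIF2AK1, the heme-regulated kinase HRI, was called higher (0.65 ± 0.11). BCL11A, the repressor of gamma globin and looked up outside the rule, had an interaction of 0.50 ± 0.15 (adjusted p = 0.0407), which lost its call with library totals alone (0.368) and in 7 of the 12 fits with 1 library left out (0.371 to 0.521). KDM1A (−0.41 ± 0.10), the demethylase LSD1, lost its call without control replicate 2 before (−0.35). The counts of this list were 2 higher and 2 lower without control replicate 1 before, 4 and 5 without knockout replicate 3 after, and 2 and 5 with library totals alone.

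Of the 16 NuRD subunits 2 were called, both lower, beside 6.68% of all tested genes called lower. A count this small was not tested against that share. The 2 were MTA3 (−1.22 ± 0.25), read at 9.19, 8.21 and 10.1 CPM in control and 3.52, 3.98 and 2.67 in knockout libraries after, and CDK2AP1 (−0.74 ± 0.17). The other 14 did not pass, and the list's median was −0.08. Of 18 DNA methylation writers and readers, 1 was called higher and 1 lower (5.56% each, against 6.28% and 6.68% of all tested genes). TET3 was the higher (0.55 ± 0.11) and DNMT3A the lower (−0.90 ± 0.24), the latter losing its call without control replicate 3 after (−0.81) or knockout replicate 1 after (−0.78). TET1, looked up outside the rule, was far higher in the knockout at both stages (3.94 ± 0.30 and 3.17 ± 0.32) with an interaction of −0.77 ± 0.53 (adjusted p = 0.387).

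Stem and progenitor genes had a median of −0.21. Of 19 tested, 5 were called lower (26.3%, against 6.68% of all tested genes) and 2 higher (10.5%, against 6.28%). HHEX, a homeobox gene of early progenitors, was lower in the knockout by 0.62 ± 0.11 on the log2 scale before and 1.89 ± 0.15 after, and GATA2 and CSF2RB were described above. LMO4, an adaptor of LIM-domain complexes, was called higher (0.95 ± 0.13). Of 31 cytokine receptor and STAT5 genes 7 were higher (22.6%, against 6.28%) and 4 lower (12.9%, against 6.68%). KIT, the SCF receptor, read 713, 737 and 772 CPM in control and 655, 655 and 675 in knockout libraries before, then 589, 578 and 591 in control and 359, 369 and 381 in knockout libraries after (interaction −0.50 ± 0.08, adjusted p = 0.000767). The groups did not overlap at either stage, but the knockout effect passed the test only after (−0.66 ± 0.06). LYN (−0.76 ± 0.10), a SRC-family kinase, was called lower in the knockout only after, and INSR (0.69 ± 0.10), the insulin receptor, rose more after. The 7 higher members were 4 without knockout replicate 3 before and 3 with library totals alone.

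Some mast cell and basophil markers were read in this line and others were nearly absent. Over all 12 libraries FCER1A and CMA1 had 4 counts each, SIGLEC8 3 and CLC 2, while KIT, HPGD and ENPP3 held 83.2% of the counts of the list. Of 12 tested, 6 had a lower interaction (50%, against 6.68% of all tested genes) and 2 a higher one (16.7%, against 6.28%), with a median of −0.75. LMO4 was 1 of the 2 higher members, at 0.95. The 2 were 1 without knockout replicate 3 after. ENPP3, the surface protein CD203c, read 194, 186 and 174 CPM in control and 186, 173 and 182 in knockout libraries before, and 118, 112 and 123 in control and 62.1, 58.4 and 52.4 in knockout libraries after (interaction −0.99 ± 0.10, adjusted p = 8.7e-06). The genotypes overlapped before and not after. TPSB2 (−1.44 ± 0.20), a tryptase whose reads may be split with its near-identical neighbours, and SIGLEC6 (−1.08 ± 0.16) were lower in the knockout at both stages and by more after. The 20 listed markers summed to between 1725 and 1801 CPM in control and 1077 and 1118 in knockout before, and to between 900.0 and 926 in control and 521 and 538 in knockout after, with no marker at 0 in all libraries. Without KIT, HPGD and ENPP3, left out after their values were seen, the sums were 288 to 317 and 159 to 172 CPM before and 158 to 166 and 88.8 to 97.6 after. KIT, GATA2 and LMO4 are on this list and were also reported above among progenitor, cytokine or erythroid factor genes, so these lists share members. The part of mast cell and basophil markers in the lower interactions of progenitor and cytokine genes was not tested.

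Markers of other blood and tissue cells were summed as well. The 26 neutrophil and monocyte markers summed to 32.4 to 35.3 CPM in control and 57.1 to 67.5 in knockout before, and to 51.3 to 59.0 and 79.8 to 95.9 after, with S100A12 at 0 in all libraries. Of the 10 tested, 2 were lower (20%, against 6.68% of all tested genes), among them AZU1, a granule protein, at −2.88 ± 0.55. The 20 megakaryocyte and platelet markers summed to 40.9 to 44.0 and 51.0 to 74.8 CPM before and 31.5 to 35.4 and 72.7 to 78.0 after, with GP1BB and PPBP at 0, and 2 of the 7 tested were lower. The 27 lymphoid markers summed to at most 5.04 CPM in any library, with CD3E at 0 and no call among the 2 tested by any tool. The 25 stromal and endothelial markers summed to 1333 to 1394 and 639.6 to 724 CPM before and 374 to 407 and 225 to 235 after. VIM, EPCAM and CDH1 held 97.1% of the counts of this list, while COL1A1, COL3A1, CDH5 and KDR had 16, 3, 2 and 8 counts over all 12 libraries. Of its 6 tested genes 2 were lower (33.3%), among them CDH1, E-cadherin of early erythroid precursors (−0.60 ± 0.13). The 2 lower megakaryocyte markers were 28.6% of those tested. With 1 library left out the counts of 2 became 1 in 8, 9 and 3 of the 12 fits for the neutrophil, megakaryocyte and stromal lists.

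Ribosome biogenesis went the other way from heme synthesis. Of 31 genes in the MYC and ribosome biogenesis list, 13 were called lower (41.9%, against 6.68% of all tested genes) and 0 higher by edgeR, only 2 had a value above zero, and the median was −0.38. At an unadjusted p below 0.05 there were 21 lower and 0 higher, by DESeq2 15 and 0, and by limma voom 14 and 0. Before differentiation 11 members were higher in the knockout and 0 lower; after it 2 were higher and 13 lower. NOP2, an rRNA methyltransferase of the nucleolus, read 54.5, 55.3 and 60.6 CPM in control and 63.6, 75.5 and 84.5 in knockout libraries before, then 66.4, 62.4 and 62.8 in control and 49.4, 49.1 and 56.0 in knockout libraries after. The genotypes exchanged order without overlap (interaction −0.70 ± 0.13, adjusted p = 0.00182). MYBBP1A (−0.89 ± 0.17), a nucleolar regulator of rRNA transcription, did the same. PES1 (−0.48 ± 0.09), of the complex that matures the large subunit, and POLR1C (−0.52 ± 0.11), shared by RNA polymerases I and III, were called lower as well. MYC itself, looked up outside the rule, was not called (−0.23 ± 0.13, adjusted p = 0.279). The 13 were 8 without knockout replicate 1 after and 22 with library totals alone.

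Mitochondrially encoded mRNAs were lower as a body. Of 13 tested, 11 were called lower (84.6%, against 6.68% of all tested genes) and 0 were higher by edgeR. Each of the 13 lay below zero, and the median was −0.85. At an unadjusted p below 0.05 all 13 were lower, and DESeq2 and limma voom each called 12 lower and 0 higher. MT-CYB, cytochrome b of complex III, read 382, 393 and 350.0 CPM in control and 368, 509 and 345 in knockout libraries before. It read 900.4, 1158 and 814 CPM in control and 464, 556 and 503 in knockout libraries after (interaction −1.03 ± 0.19, adjusted p = 0.00183). Control libraries rose with differentiation (1.35 on the log2 scale) and knockout libraries did not pass that test (0.32), and the genotypes overlapped before and not after. MT-ATP6 (−0.92 ± 0.17) of ATP synthase and MT-ND4L (−0.87 ± 0.16) and MT-ND2 (−0.86 ± 0.16) of complex I followed the same course. The 2 mitochondrial ribosomal RNAs, looked up outside the rule, stood on the other side of zero without passing the test, MT-RNR1 at 1.38 ± 0.65 (adjusted p = 0.185) and MT-RNR2 at 1.03 ± 0.61 (adjusted p = 0.309). MT-RNR1 was 0.38 without control replicate 1 before and passed without control replicate 3 before (1.77, adjusted p = 0.0466), and it was 0.899 without knockout replicate 1 after. MT-RNR2 was 0.118 without control replicate 1 before and 0.628 without knockout replicate 1 after. With no count filter both passed at nearly unchanged values (MT-RNR1 at 1.35 and MT-RNR2 at 1.00), so these passes did not come from larger interactions and are not counted as such. The ribosomal RNA share, higher in the knockout libraries after differentiation, counts these 2 RNAs and is therefore no separate measure of them. With scaling factors computed without ribosomal RNA, globin and mitochondrial genes, 11 of the 13 mRNAs were again called lower. The part of the share in the values of the mRNAs was not tested further.

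Among glycolysis and hypoxia genes more were called lower than higher, and 18 were not called. Of 33 tested, 13 were called lower (39.4%, against 6.68% of all tested genes) and 2 higher (6.06%, against 6.28%). The median was −0.37, and the counts were 16 and 2 with library totals alone. ENO1, the ubiquitous enolase, read 878, 875 and 839.6 CPM in control and 928, 1014 and 948 in knockout libraries before. It read 429.7, 464 and 405 CPM in control and 244, 237 and 255 in knockout libraries after (interaction −0.98 ± 0.10, adjusted p = 6.59e-06). The knockout lay slightly above control before, without passing the test, and below it after. LDHA, lactate dehydrogenase A, turned from higher (0.30 ± 0.07) to lower (−0.36 ± 0.07), and PKM, pyruvate kinase M and looked up outside the rule, was lower at both stages (−0.75 ± 0.10 and −1.95 ± 0.15). The 2 higher members were SLC2A1 and BPGM, which makes the 2,3-bisphosphoglycerate that lowers the oxygen affinity of hemoglobin. BPGM read 17.9, 16.9 and 19.4 CPM in control and 79.4, 82.5 and 83.4 in knockout libraries after, against 12.6, 12.4 and 10.9 and 22.3, 22.9 and 19.4 before (interaction 1.33 ± 0.13, adjusted p = 6.59e-06).

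Replication-dependent histone genes were higher, with 52 of 56 above zero and a median of 0.38. Of the 56, 31 were called higher (55.4%, against 6.28% of all tested genes) and 1 lower (1.79%, against 6.68%). Without scaling factors 17 were higher and 1 lower. HIST1H1C, linker histone H1.2, read 807, 763 and 745 CPM in control and 801, 673 and 653 in knockout libraries before, and 827, 893 and 851 in control and 1272, 1222 and 1233 in knockout libraries after (interaction 0.66 ± 0.11, adjusted p = 0.000695). The genotypes overlapped before and not after. The core histone genes HIST1H2AB (0.77 ± 0.10), HIST2H2AC (0.77 ± 0.10) and HIST1H2BB (0.58 ± 0.10) had the same form. HIST2H2AC and HIST1H2BB share exon bases with other genes. Most of these mRNAs lack a poly(A) tail, and the libraries were made from total RNA.

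Cell division genes moved less. Mitosis and cytokinesis gave 12 higher (36.4%, against 6.28% of all tested genes) and 0 lower of 33 by edgeR, with a median of 0.27. The counts were 21 and 0 at an unadjusted p below 0.05, 13 and 0 by DESeq2 and 14 and 0 by limma voom. With library totals alone 2 were higher. The called genes included CCNA2 (0.44 ± 0.10), cyclin A2, and NUF2 (0.54 ± 0.13), of the kinetochore. The count of 12 was 7 without control replicate 1 before, 6 without control replicate 2 before or knockout replicate 2 after, and 5 without control replicate 2 after or knockout replicate 1 after. DNA replication gave 3 higher (8.82%, against 6.28% of all tested genes) and 0 lower of 34 by edgeR, which turned to 0 higher and 4 lower with library totals alone. The 3 were 5 without knockout replicate 2 before, and 1 without control replicate 2 before, control replicate 1 or 2 after, or knockout replicate 1 after. At an unadjusted p below 0.05 there were 5 higher and 1 lower, by DESeq2 2 and 1, and by limma voom 3 and 0. Of 20 CDK inhibitors and cyclins 6 were higher (30%, against 6.28%) and 2 lower (10%, against 6.68%), with a median of 0.18. The 2 lower became 1 or 0 in 10 of the 12 fits with 1 library left out. The higher ones included CCND3 (1.11 ± 0.17), the cyclin D of terminal erythroid divisions, CDKN2B (0.71 ± 0.10), the inhibitor p15, CDKN1B (0.55 ± 0.10), the inhibitor p27, and CCNE2 (0.53 ± 0.12).

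Stress and signal response genes leaned higher. Of 25 integrated stress response genes 8 were higher (32%, against 6.28% of all tested genes) and 1 lower (4%, against 6.68%). Their median was 0.49, and 22 lay above zero. ATF5, a bZIP factor translated under stress, read 4.69, 4.47 and 4.38 CPM in control and 7.65, 9.88 and 5.97 in knockout libraries before, then 17.5, 22.7 and 19.6 in control and 81.0, 92.0 and 101 in knockout libraries after (interaction 1.4 ± 0.23, adjusted p = 0.000588). The groups did not overlap at either stage. CEBPG (0.61 ± 0.11), a partner of ATF4, PCK2 (0.67 ± 0.15), the mitochondrial PEP carboxykinase, and TRIB3 (1.11 ± 0.26), a pseudokinase looked up outside the rule, were also called. The 8 were 14 without knockout replicate 1 before and 6 with library totals alone.

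Among 21 p53 targets 5 were higher (23.8%, against 6.28% of all tested genes) and 1 lower (4.76%, against 6.68%), with a median of 0.21. BBC3 (0.95 ± 0.19), the pro-apoptotic PUMA, and BTG2 (0.97 ± 0.26) were called. GDF15 (1.00 ± 0.25), also called, lost its call without control replicate 1 before (0.847). Those counts were 2 higher and 0 lower without that library and 3 and 3 with library totals alone. Of 24 immediate early genes 7 were higher (29.2%, against 6.28%) and 1 lower (4.17%, against 6.68%), with a median of 0.36. They were led by JUN (0.89 ± 0.16), KLF10 (0.65 ± 0.14), the phosphatase gene DUSP1 (0.54 ± 0.12) and FOSB (0.89 ± 0.21). FOSB was lower in the knockout before (−0.59 ± 0.16) and did not pass that test after (0.31 ± 0.12).

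Glucocorticoid response genes gave 8 higher (38.1%, against 6.28% of all tested genes) and 3 lower (14.3%, against 6.68%) of 21. The median was 0.11, and the counts were 6 and 6 with library totals alone. DEX was present only before differentiation. TXNIP, the thioredoxin-interacting protein, overlapped between genotypes before and not after. It read 343, 311 and 307 CPM in control and 405, 337 and 311 in knockout libraries before and 444, 469 and 469 CPM in control and 989, 1014 and 999.6 in knockout libraries after (interaction 0.99 ± 0.12, adjusted p = 4.15e-05). KLF9 (1.18 ± 0.13), a direct target of the receptor, rose more after, and NR3C1, the receptor itself, turned from lower (−0.32 ± 0.06) to higher (0.23 ± 0.06). The 3 lower members were 5 without knockout replicate 3 after.

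Smaller groups split. Interferon response genes gave 5 lower (21.7%, against 6.68% of all tested genes) and 2 higher (8.7%, against 6.28%) of 23, with a median of −0.30. BST2, tetherin (−0.91 ± 0.13), IFITM2 (−1.46 ± 0.28) and IFIT2 (−1.35 ± 0.22) were among the lower, and IRF1 (0.78 ± 0.16) among the higher. IFIT2 read 4.50, 4.00 and 3.90 CPM in control and 9.09, 11.3 and 10.5 in knockout libraries before, and overlapped after at 6.28, 6.83 and 7.79 against 6.92, 5.81 and 7.73. Cholesterol synthesis genes gave 4 higher (16.7%, against 6.28%) and 2 lower (8.33%, against 6.68%) of 24. MSMO1 (0.91 ± 0.13), a sterol oxidase that turned from lower to higher, INSIG1 (0.63 ± 0.11) and FDFT1 (0.39 ± 0.08), squalene synthase, were among the higher. The 2 higher interferon genes and the 2 lower cholesterol genes became 1 in 8 and 9 of the 12 fits with 1 library left out. Of 31 antioxidant genes 3 were higher and 3 lower (9.68% each, against 6.28% and 6.68%). The higher included catalase CAT (0.65 ± 0.09) and the glutathione synthesis enzyme GCLC (0.59 ± 0.10), and the lower MGST1 (−0.64 ± 0.16). The counts of this last list were 5, 6 and 5 higher without control replicate 1, knockout replicate 1 or knockout replicate 2 before, and 2 higher and 6 lower with library totals alone. Its 3 lower became 1 without knockout replicate 1 after and 2 in 10 other fits with 1 library left out. The single lower call of the histone, immediate early, p53, integrated stress response, late maturation and iron lists became 0 in 7, 7, 8, 2, 2 and 2 of the 12 fits with 1 library left out.

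The log2 scale and the CPM scale did not always give the same order. In 79 of the 2227 called genes the knockout minus control difference in CPM moved opposite to the log2 interaction, 77 of them called lower and 2 called higher. SLC4A1, the anion exchanger band 3 and looked up outside the rule, read 1.5, 2.64 and 2.76 CPM in control and 112, 131 and 96.3 in knockout libraries before, and 54.2, 51.4 and 47.5 in control and 881, 1001 and 1191 in knockout libraries after. The fold fell from 5.6 ± 0.18 to 4.33 ± 0.14 on the log2 scale (interaction −1.27 ± 0.24, adjusted p = 0.00209), while the difference in CPM grew. H1F0 was of this kind too, at 0.657, 0.406 and 0.286 against 8.08, 7.81 and 7.24 CPM before and 41.8, 53.7 and 46.5 against 217, 260.1 and 244 after (interaction −1.74 ± 0.31, adjusted p = 0.00141). In both genes control libraries rose with differentiation, by 4.45 (SLC4A1) and 6.70 (H1F0) on the log2 scale.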

How the data were processed

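Total RNA of HUDEP-2 cells was read as stranded libraries after removal of ribosomal and globin RNA. The authors deposited 1 table of raw read counts per gene for all 12 libraries; per the file headers it was made with featureCounts 1.4.6-p4 on GENCODE release 22 without a strand option, while the submitters' processing notes list Trimmomatic, FastQC, Subread 1.6.2, featureCounts 1.2.6, edgeR 3.18.1 and hg38. Reads of overlapping genes on opposite strands can therefore not be told apart. Symbols came from GENCODE 29 by gene ID (56753 named, 3730 not), and promoter sequences from RefSeq (GRCh38.p14) by symbol.

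Genes were filtered with filterByExpr, counts scaled by TMM, and 1 model with 4 group means was fitted to all 12 libraries in edgeR 4.0.16 (quasi-likelihood F test, R 4.3.3), with Benjamini-Hochberg adjustment over 17175 genes and a threshold of 0.05. The interaction is a contrast of the 4 means. Standard errors are the absolute log2 change divided by the square root of F. The common biological coefficient of variation was 0.089. Precision follows depth: the median standard error was 0.519 in the lowest expression quartile and 0.106 in the highest. Replicates of each group differed by more than sampling noise. Alternatives were other scalings and count filters, limma 3.58.1 voom, DESeq2 1.42.0, a replicate block and leaving out each library.

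The comparison and the 36 gene lists were chosen with earlier results of these data known, so a count over a list is a description. The genes named were MBD2 and the globins, 12 protein-coding genes per direction with the largest called interaction, a mean log2 CPM (prior count 2) of at least 2 and non-overlapping libraries, up to 4 called members per list with the smallest adjusted p, and up to 5 per direction with opposite effects. A few genes that this rule names are not reported here. Other genes are marked in the text as chosen after their values were seen.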

Additional observations from a re-analysis of the deposited data

Results flagged for a closer look

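The effect of the knockout differed between the 2 stages, by the test of the difference itself, in 1079 genes with a higher and 1148 genes with a lower interaction. Of these, 48 turned from lower to higher in the knockout and 63 from higher to lower, passing the knockout test with opposite signs at the 2 stages. Genes named by the rule among those that turned, at most 5 per direction, were ACSM3 (interaction 2.00 on the log2 scale), WWC3 (1.56), BTG1 (1.49), CDH6 (1.45) and ZC3H6 (1.4) in the first direction. In the second they were TRIM67 (−3.61), KLF15 (−1.83), SLC6A6 (−1.76), PRRG4 (−1.64) and EGFL7 (−1.62). With 3 libraries per group, single libraries could not be screened for outlying values.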

How the results depend on the processing

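With library totals alone the interaction gave 644 higher and 2146 lower genes, and the knockout effect after differentiation gave 1843 higher and 4826 lower, since the lower scaling factors of the knockout libraries after differentiation were then not used. The other settings kept both interaction counts within 1.5 times of 1079 and 1148: 1020 and 1196 with RLE factors, 954 and 1196 with no filter, 1214 and 1091 with a mean of 50 counts, 970 and 1100 with DESeq2, 1100 and 1102 with limma voom. Scaling factors computed without ribosomal RNA, globin and mitochondrial genes gave 1078 higher and 1155 lower. Leaving out 1 library gave 817 to 1230 higher and 809 to 1145 lower for the interaction, and 1024 to 1589 higher genes for the knockout effect before; the cause was not tested.

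A replicate block gave 1344 higher and 1384 lower. Same-numbered libraries correlated in their deviations from group means by −0.0179 to 0.251, with 10 of 18 pairs over 0.1. Since not every pair was over 0.1 the numbers were not taken as a pairing; 10 of 12 libraries lay closest to their own number, a hint from the data and not from the design.

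Only globins, none called, changed sign. With limma voom HBG1 was 0.0902, HBZ 0.0284, HBBP1 −0.0403 and HBD −0.136, and HBD was −0.0413 with library totals alone. With 1 library left out, values ran from −2.24 to 0.13 for HBG1, −0.504 to 0.435 for HBZ, −0.172 to 0.787 for HBBP1, −0.281 to 0.584 for HBD, −0.503 to 0.272 for HBM and −0.244 to 0.163 for HBQ1. With no filter HBG2 (1.81), HBB (1.71), HBA1 (1.46), HBA2 (1.64), MT-RNR1 (1.35) and MT-RNR2 (1.00) passed the test. With the filter none of these genes passed, at nearly the same values (1.83, 1.74, 1.49, 1.67, 1.38 and 1.03, in that order). The passes therefore did not come from larger interactions. None of these genes had non-overlapping libraries in the sense used above, and the passes are not counted as interactions here. Genes in the lowest quartile, with a median standard error of 0.519, could show only large changes.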

Other observations

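The chance of a call followed expression. By quartile of mean log2 CPM, 3.21%, 9.32%, 16.9% and 22.4% of genes were called from the lowest to the highest, with median standard errors of 0.519, 0.274, 0.153 and 0.106. In the highest quartile higher calls outnumbered lower ones (550 and 412), and in the third the order was the reverse (292 and 435). Of 11652 protein-coding genes 17.1% were called, 939 higher and 1058 lower, against 4.83% of lincRNAs, 4.26% of antisense genes and 3.81% of processed pseudogenes. Antisense genes had 32 higher and 9 lower calls, and because counting did not use strand their reads cannot be told apart from those of the gene opposite.

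By chromosome, the share called ran from 9.12% on chromosome 16 to 16.1% on chromosome 6 among the nuclear chromosomes. Chromosome 18 stood apart in the knockout effects, with medians of −0.481 before and −0.384 after over its 265 tested genes. Its median interaction was 0.09, with 22 higher and 7 lower calls (10.9% called in either direction). Chromosome 19 had 32 higher and 82 lower calls of 1107 tested (10.3% called in either direction). Over all tested genes 6.28% were called higher and 6.68% lower.

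Smaller gene groups can be set beside 6.28% of all tested genes called higher and 6.68% called lower. MHC class I and antigen processing genes had 3 higher (15%) and 4 lower (20%) of 20 tested, with B2M (0.52 ± 0.12) and CANX (0.45 ± 0.09) higher and ERAP2 (−0.66 ± 0.14) and TAP2 (−0.55 ± 0.14) lower; with 1 library left out the lower count was 2 or 3 in all 12 fits. Serine synthesis and one-carbon genes had 4 higher of 22 (18.2%), from 1 to 8 with 1 library left out and 1 with library totals alone. Among 14 imprinted genes NAP1L5 (1.12 ± 0.21) was higher and MEST (−0.53 ± 0.10) lower. Of 41 germline and cancer-testis genes only 8 were tested, and SOHLH2 (1.2 ± 0.29) was 1 of 2 called higher. The other call was lost in 8 of the 12 fits with 1 library left out, by DESeq2, with no filter and with library totals alone.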
